A study of Mus musculus with 15 samples.

Results

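The receptors through which myeloid progenitors read their growth factors were followed by RNA sequencing across sorted mouse bone marrow cells of an MLL-AF9 leukaemia series. The set holds 8 genes, Csf3r, Csf1r, Csf2ra, Csf2rb, Csf2rb2, Il3ra, Il6ra and Il6st, named by symbol, out of 20453 genes with a symbol in the count table. Each gene was represented by the transcript with the highest mean count, and all 8 passed the filter on low counts. Libraries fall into LTearly (n = 4), LTlate (n = 3), BMTGMP (n = 3) and wtGMP (n = 4). The labels do not spell out the first 3 names, which are called the MLL-AF9 groups here after the series title, and wtGMP is read as wild-type granulocyte-macrophage progenitors. A further library, M2grLT3, is LTearly in its title and LTlate in its column name, so its values are given apart and enter no group.

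The protocols describe a human MLL-AF9 fusion cDNA recombined into a targeting cell line that was treated with doxycycline to switch on Cre, and chimaeric lines raised from selected clones. These were crossed back to C57BL/6 for up to 10 generations, and double heterozygous females were used. MLL-AF9 joins the amino-terminal part of MLL to AF9 and drives acute myeloid leukaemia. The strain entry is C57BL/6 for every library, and the age of the mice, the alleles of the wtGMP mice and any doxycycline given to mice are not stated in the labels. Before sorting, marrow was depleted of cells carrying Cd5, Cd11b, B220, Gr-1 or Ter119. Gates are given for granulocyte-macrophage progenitors (c-Kit+, Cd34+, high for Fc gamma receptors) and for long-term haematopoietic stem cells, but not which gate each MLL-AF9 library came from. The MLL-AF9 genotype, the leukaemic state and the gate therefore cannot be told apart in any comparison with wtGMP. Column names of every group, wtGMP included, also hold the letters BMTs, whose meaning is not used here. A transplantation of the MLL-AF9 cells alone, if made, could likewise not be told apart from these.

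As background, receptors of this class carry the signals that keep granulocyte and macrophage progenitors alive and dividing. Csf3r is the receptor of G-CSF, the growth factor of granulocytes, and signals as a homodimer. Csf1r is the receptor tyrosine kinase for M-CSF and interleukin 34 and marks the monocyte and macrophage lineage. Csf2ra and Il3ra are the ligand-binding alpha chains for GM-CSF and interleukin 3. Csf2rb is the beta chain shared by GM-CSF, interleukin 3 and interleukin 5, and Csf2rb2 is a second mouse beta chain that serves interleukin 3 alone. Il6ra binds interleukin 6, and Il6st encodes gp130, the signalling chain shared by interleukin 6, interleukin 11, leukaemia inhibitory factor and oncostatin M. Except for Csf1r, these receptors have no kinase domain and signal through JAK kinases and STAT factors.

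Promoters are shown because the receptors differed in direction, with Csf2ra, Csf2rb, Csf2rb2 and Csf3r higher and Il6st lower in at least 1 MLL-AF9 group. RefSeq promoters of build GRCm38.p6 matched 6 of the 8 genes, with none for Csf1r and Csf2rb. They give the 250 bases before the annotated start, 5′ to 3′ on the strand of the gene, and were not used with coordinates of mm9, the build of the counts. Capitals mark GAGGAA or its reverse complement, the core of the motif of PU.1, a transcription factor of myeloid genes.
Csf2ra, chr19:61228419-61228668, minus strand: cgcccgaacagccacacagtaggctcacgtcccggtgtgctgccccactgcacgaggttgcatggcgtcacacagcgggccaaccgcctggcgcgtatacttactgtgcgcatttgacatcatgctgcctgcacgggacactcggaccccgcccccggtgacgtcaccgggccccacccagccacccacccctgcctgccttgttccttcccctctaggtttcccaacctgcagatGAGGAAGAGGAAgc
Csf3r, chr4:126024409-126024658, plus strand: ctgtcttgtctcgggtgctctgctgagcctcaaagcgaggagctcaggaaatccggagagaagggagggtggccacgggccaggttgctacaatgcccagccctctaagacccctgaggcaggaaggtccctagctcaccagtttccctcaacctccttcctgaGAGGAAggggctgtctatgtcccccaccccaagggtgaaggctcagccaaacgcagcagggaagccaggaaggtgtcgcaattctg
Csf2rb2, chr15:78305722-78305971, minus strand: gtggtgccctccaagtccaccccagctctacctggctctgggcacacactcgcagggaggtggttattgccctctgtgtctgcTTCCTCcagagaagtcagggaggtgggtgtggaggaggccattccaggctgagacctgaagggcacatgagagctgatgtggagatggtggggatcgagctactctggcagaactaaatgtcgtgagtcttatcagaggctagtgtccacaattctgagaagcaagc
Il6st, chr13:112463820-112464069, plus strand: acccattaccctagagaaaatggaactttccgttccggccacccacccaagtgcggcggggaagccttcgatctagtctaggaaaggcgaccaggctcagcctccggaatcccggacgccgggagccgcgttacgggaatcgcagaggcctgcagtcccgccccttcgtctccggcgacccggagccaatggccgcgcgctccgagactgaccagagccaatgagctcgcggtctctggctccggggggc
In Csf2ra the core occurs in tandem, with first bases 14 and 8 bases before the start. Csf3r holds it 86 bases before the start, Csf2rb2 holds it on the reverse strand with its first base 167 bases before the start, and Il6st holds none in this window. Among the others with a promoter, Il6ra holds it 70 bases before the start on the reverse strand and Il3ra holds none. With both strands searched, 23.3% of 32851 RefSeq promoter windows of the same length hold the core. The letters TTGCNNAA, a C/EBP core, were found in Il3ra alone among the 6 genes searched and in 9.6% of all windows. TTCNNNGAA, a STAT core, was found in Csf2rb2 alone among these 6 and in 7.0% of all windows. A match describes the letters only, and no match says only that they are absent from the window.

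Depth differed by group: counts on the gene table ran from 2696036 to 8695227 per library in LTearly, 11569325 to 15092528 in LTlate, 4555960 to 10712578 in BMTGMP and 2469452 to 6978682 in wtGMP. Levels are CPM, a count divided by the depth of its library as adjusted by TMM. Tests are edgeR's quasi-likelihood test with Benjamini-Hochberg adjustment over 14542 genes, and a gene is called at an adjusted p under 0.05. Titles of the MLL-AF9 libraries end in tags that the labels do not explain, so which libraries came from different mice is not known. The ending grD2 is shared by LTearly library 1 and LTlate library 3, grLT3 by LTearly library 3, LTlate library 2 and M2grLT3, and grV by BMTGMP libraries 1 and 2. The p-values reflect only how far these libraries vary, which may be technical. Late neutrophil markers, of which no list member was at 0 throughout a group, summed to 13080 to 25960 CPM in LTearly, 5333 to 9547 in LTlate, 1440 to 7066 in BMTGMP and 58.6 to 154.8 in wtGMP. Of these 12 genes, 12, 11 and 9 were called higher than in wtGMP in LTearly, LTlate and BMTGMP. The shares over all genes were 10.7%, 7.65% and 4.35%. Sums of the primary granule markers ran the other way, at 828 to 6105 CPM in LTearly and 949 to 1400.0 in LTlate. They were 7799 to 11380 CPM in BMTGMP and 18700 to 21980 in wtGMP. Of 5 genes, 5, 3 and 0 were called lower, beside 9.46%, 3.01% and 2.17% of all genes. For that 0 in BMTGMP, 0 had an unadjusted p under 0.05 and DESeq2 called 0. Mpo made up most of the BMTGMP and wtGMP sums, averaging 7679 and 17580 CPM. Elane averaged 1062 CPM in BMTGMP against 921.8 in wtGMP, while Prtn3, Ctsg and Ms4a3 averaged lower in BMTGMP. Eosinophil markers summed to 19.5 to 35.5 CPM in LTearly, 77.8 to 285 in LTlate, 0.654 to 10.4 in BMTGMP and 111 to 229 in wtGMP. Lists of 8 other kinds of cell, from basophils to stem cells, summed to at most 56.5 CPM in any library. Kit averaged 50.9, 23.1, 66.5 and 194 CPM in LTearly, LTlate, BMTGMP and wtGMP, and Cd34 averaged 32.3, 117, 4.75 and 250.2 CPM, both highest in wtGMP. The Fc gamma receptor genes of the same gate were highest in LTlate: Fcgr3 averaged 319.5, 431.9, 209 and 259 CPM in LTearly, LTlate, BMTGMP and wtGMP, and Fcgr2b averaged 119, 160.4, 87.3 and 87.4 CPM. Against wtGMP, Kit and Cd34 were called lower in LTearly, Kit in LTlate and Cd34 in BMTGMP, while Fcgr3 and Fcgr2b were called higher in LTlate (adjusted p = 0.0228 and 0.022) and in neither other group. Their part in the receptor results was not tested.

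Against wtGMP, the gene of the GM-CSF alpha chain rose and the gp130 gene fell in every MLL-AF9 group. The beta chain genes were called higher in LTearly and LTlate. In LTearly, Csf2ra, Csf2rb, Csf2rb2 and Csf3r rose and Il6st fell. That is 4 of 8 called higher beside 10.7% of all genes, and 1 of 8 called lower beside 9.46%. In LTlate, Csf2ra, Csf2rb and Csf2rb2 rose, 3 of 8 beside 7.65% of all genes, and Il6st fell, 1 of 8 beside 3.01%. In BMTGMP, Csf2ra alone was called higher, 1 of 8 beside 4.35%, and Il6st alone was called lower, 1 of 8 beside 2.17%. There 5 of the 8 had an unadjusted p under 0.05, and DESeq2 called 3. The median log2 fold change of the 8 genes was 0.63 in LTearly, 0.59 in LTlate and 0.20 in BMTGMP, against 0.19, 0.01 and 0.06 over all genes. These 3 comparisons share the wtGMP libraries and are not independent of each other.

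**Figure D1:**
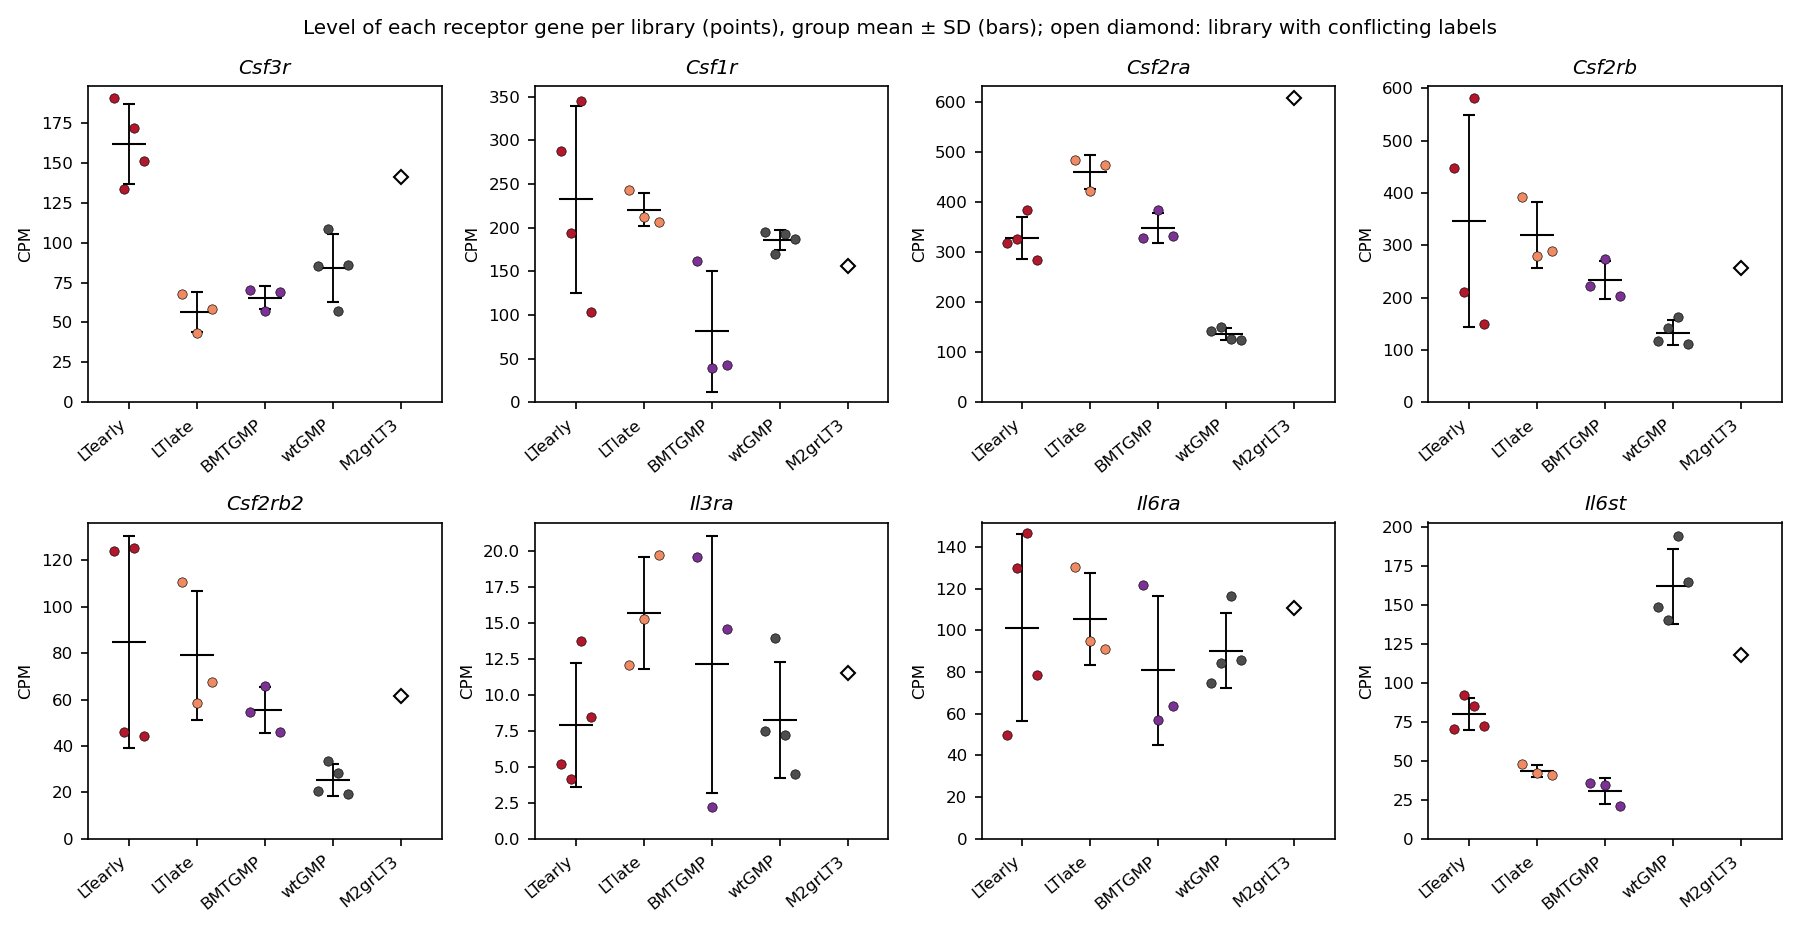
CPM of each receptor gene per library (points) in LTearly, LTlate, BMTGMP and wtGMP, with group mean and SD (bars) and the library with conflicting labels, M2grLT3, as an open diamond. Csf2ra lies above every wtGMP library and Il6st below every wtGMP library in all 10 MLL-AF9 libraries, while Csf3r is raised in LTearly.

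Csf2ra, the GM-CSF alpha chain, had 318, 326, 385 and 283 CPM in the LTearly libraries, 484.5, 422 and 474 in LTlate, 329, 384 and 332 in BMTGMP, and 141, 150.2, 127 and 124 in wtGMP. The 10 MLL-AF9 libraries were all higher than the 4 of wtGMP, with every LTlate library above every LTearly and BMTGMP library. The log2 fold change over wtGMP was 1.27 ± 0.16 in LTearly (SE, adjusted p = 9.7e-07), 1.76 ± 0.17 in LTlate (adjusted p = 2.1e-08) and 1.36 ± 0.17 in BMTGMP (adjusted p = 2.48e-06). In bulk RNA, more cells of a type and more RNA per cell cannot be told apart, here and for every gene below. Among the MLL-AF9 groups no Csf2ra difference was called: LTearly minus LTlate was -0.49 ± 0.16 (SE, adjusted p = 0.235), LTlate minus BMTGMP 0.40 ± 0.18 (adjusted p = 0.348) and LTearly minus BMTGMP -0.09 ± 0.16 on the log2 scale (95% interval -0.42 to 0.25).

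Csf2rb, the shared beta chain, had 447, 209.8, 581 and 149 CPM in LTearly, 391, 279 and 288 in LTlate, 223, 273 and 204 in BMTGMP, and 117, 141, 162 and 112 in wtGMP. LTearly was split, with libraries 1 and 3 far above libraries 2 and 4, and its lowest library lay below the highest wtGMP library. LTlate and BMTGMP did not overlap wtGMP. The log2 fold change over wtGMP was 1.38 ± 0.34 in LTearly (SE, adjusted p = 0.0107), 1.26 ± 0.36 in LTlate (adjusted p = 0.0388) and 0.81 ± 0.36 in BMTGMP (adjusted p = 0.241). The LTlate call was lost in 9 of 18 alternative settings, among them the removal of any single library of the pair of groups (adjusted p 0.0665 to 0.176).

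Csf2rb2, the beta chain of the mouse interleukin 3 receptor, had 124, 46.1, 125 and 44.3 CPM in LTearly, 111, 58.6 and 67.6 in LTlate, 54.8, 66.0 and 46.1 in BMTGMP, and 20.45, 33.5, 28.2 and 19.1 in wtGMP. All MLL-AF9 libraries lay above all wtGMP libraries, and the high and low LTearly libraries were those of Csf2rb. The log2 fold change over wtGMP was 1.75 ± 0.34 in LTearly (SE, adjusted p = 0.000474), 1.65 ± 0.35 in LTlate (adjusted p = 0.00228) and 1.14 ± 0.35 in BMTGMP (adjusted p = 0.0512). The BMTGMP difference was called in 7 of 17 alternatives, over which its adjusted p ran from 0.0164 to 0.183. The beta chain genes are closely related copies: 892 of 4715 windows of 50 bases in Csf2rb are also in Csf2rb2, so their reads are partly shared and each level is uncertain. With both summed, the log2 fold change over wtGMP was 1.48 ± 0.36 in LTearly (adjusted p = 0.00958), 1.32 ± 0.37 in LTlate (adjusted p = 0.0392) and 0.87 ± 0.37 in BMTGMP (adjusted p = 0.222).

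Il3ra, the interleukin 3 alpha chain, rested on few reads, 14 to 288 counts per library. It had 5.22, 4.17, 13.8 and 8.48 CPM in LTearly, 12.04, 15.2 and 19.7 in LTlate, 19.5, 2.21 and 14.55 in BMTGMP, and 7.49, 13.9, 7.17 and 4.46 in wtGMP. Groups overlapped in every comparison, and BMTGMP spread from the lowest library of all to nearly the highest. The difference from wtGMP was -0.06 ± 0.63 in LTearly, 0.93 ± 0.66 in LTlate and 0.56 ± 0.67 in BMTGMP on the log2 scale (SE, adjusted p 0.966, 0.424 and 0.74). The LTlate interval, -0.43 to 2.29, leaves room for a change as large as that of the beta chains.

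Csf3r separated LTearly from every other group. It had 191, 134, 172 and 151 CPM in LTearly, 68.1, 43.2 and 58.7 in LTlate, 70.2, 57.2 and 69.0 in BMTGMP, and 85.4, 109, 56.9 and 86.3 in wtGMP. All LTearly libraries lay above all 10 others, and LTlate and BMTGMP overlapped both each other and wtGMP. LTearly was higher than wtGMP by 0.94 ± 0.22 (SE, adjusted p = 0.00217), than BMTGMP by 1.31 ± 0.24 (adjusted p = 0.00119) and than LTlate by 1.51 ± 0.24 on the log2 scale (adjusted p = 0.00602). LTlate minus wtGMP was -0.57 ± 0.24 (adjusted p = 0.133) and BMTGMP minus wtGMP -0.36 ± 0.24 (adjusted p = 0.42). Csf3r averaged 56.7 ± 12.6 CPM in LTlate and 65.5 ± 7.19 in BMTGMP, against 84.3 ± 21.2 in wtGMP (SD, n = 3, 3 and 4). RNA of the late neutrophil markers was also highest in LTearly, and above wtGMP in LTlate and BMTGMP. The part of neutrophils in the Csf3r level was not tested. The LTearly call over LTlate was lost without LTlate library 3 (adjusted p = 0.059) and with M2grLT3 counted as LTlate (adjusted p = 0.194). Of the windows of 50 bases in the Csf3r transcript, 11.2% are shared with other genes of the GENCODE annotation.

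Csf1r was not called in any comparison by edgeR's test over all 14 libraries without a replicate block, and its calls against BMTGMP depended on the setting and on single libraries. It had 287, 193, 346 and 102.9 CPM in LTearly, 243, 213 and 207 in LTlate, 161, 39.1 and 43.0 in BMTGMP, and 195, 170.1, 193 and 187 in wtGMP. LTlate lay just above wtGMP and BMTGMP below it, both without overlap, and LTearly spread over more than the range of wtGMP on both sides. BMTGMP minus wtGMP was -1.19 ± 0.50 on the log2 scale (SE, adjusted p = 0.225), and without BMTGMP library 1 it was -2.16 (adjusted p = 0.000138). DESeq2, over all libraries, called BMTGMP lower than wtGMP (adjusted p = 0.0392) and LTearly and LTlate higher than BMTGMP (adjusted p = 0.00243 and 0.0369). With the replicate number as a block, edgeR gave -1.42 for BMTGMP minus wtGMP, 1.605 for LTearly minus BMTGMP and 1.85 for LTlate minus BMTGMP (adjusted p = 0.0434, 0.026 and 0.0354), although the numbers did not pair the libraries. Without BMTGMP library 1, LTearly minus BMTGMP moved to 2.49 (adjusted p = 8.95e-05) against 1.51 ± 0.51 with it (adjusted p = 0.119), and LTlate minus BMTGMP to 2.42 (adjusted p = 0.000158) against 1.44 ± 0.53 (adjusted p = 0.283). Without LTearly library 4, LTearly minus BMTGMP was 1.76 (adjusted p = 0.0284). The monocyte and macrophage markers summed to 446 to 892 CPM in LTearly and 458 to 584 in LTlate. Their sums were 303 to 393 CPM in BMTGMP and 372 to 407 in wtGMP. Of 9 tested, 4, 4 and 1 were called higher than in wtGMP, beside 10.7%, 7.65% and 4.35% of all genes. In LTearly 1 was called lower, beside 9.46%. C1qb was at 0 in BMTGMP and wtGMP and Ms4a7 at 0 in wtGMP, and the part of such cells in the Csf1r level was not tested.

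Il6st, the gene of gp130, fell in all 3 MLL-AF9 groups. It had 70.5, 92.0, 85.1 and 72.2 CPM in LTearly, 47.9, 42.3 and 40.8 in LTlate, 35.9, 34.6 and 21.0 in BMTGMP, and 148.5, 140.2, 194 and 165.0 in wtGMP. The ranges of the 4 groups did not overlap, with wtGMP highest, then LTearly, LTlate and BMTGMP. The log2 fold change against wtGMP was -1.02 ± 0.21 in LTearly (SE, adjusted p = 0.00082), -1.89 ± 0.24 in LTlate (adjusted p = 2.74e-06) and -2.40 ± 0.25 in BMTGMP (adjusted p = 1.41e-07). LTearly was higher than BMTGMP by 1.38 ± 0.24 (adjusted p = 0.000648). LTearly minus LTlate was 0.87 ± 0.23 (adjusted p = 0.0948) and LTlate minus BMTGMP 0.51 ± 0.25 (adjusted p = 0.408), so neighbours in this order were not called apart, except LTearly from wtGMP. LTearly over LTlate was called in 2 of 18 alternatives, by DESeq2 (adjusted p = 0.00213) and with M2grLT3 counted as LTearly (adjusted p = 0.0398). With M2grLT3 counted as LTlate, LTearly minus LTlate was 0.358 (adjusted p = 0.775), the lowest value and the highest adjusted p of the 18.

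Il6ra, the interleukin 6 binding chain, had 49.8, 129.8, 147 and 78.3 CPM in LTearly, 130.5, 94.85 and 90.8 in LTlate, 122, 56.8 and 63.6 in BMTGMP, and 74.5, 84.4, 116 and 85.7 in wtGMP. All groups overlapped. The difference from wtGMP was 0.16 ± 0.30 in LTearly (SE, adjusted p = 0.772, 95% interval -0.45 to 0.77), 0.22 ± 0.32 in LTlate (adjusted p = 0.76, interval -0.43 to 0.88) and -0.16 ± 0.32 in BMTGMP (adjusted p = 0.88, interval -0.82 to 0.50) on the log2 scale.

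**Figure D2:**
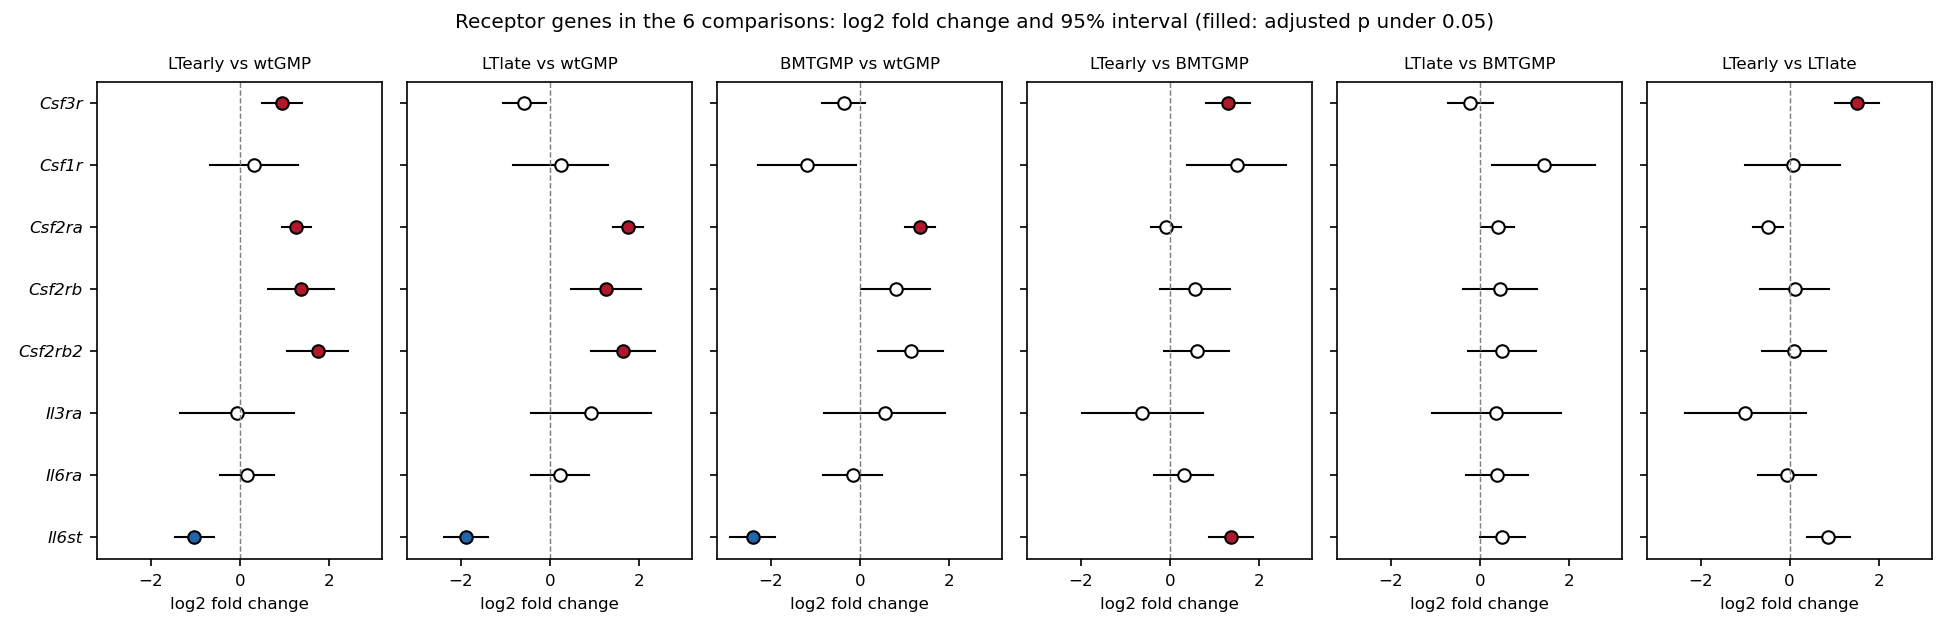
Log2 fold change (x axis) and 95% interval of the 8 receptor genes in the 6 comparisons, with filled points for adjusted p under 0.05 (red higher, blue lower, open not called). Csf2ra is filled in every panel against wtGMP at 1.27 to 1.76, Il6st at -1.02 to -2.40, and Csf3r is filled in each panel with LTearly first.

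Between the MLL-AF9 groups, Csf3r and Il6st set LTearly apart from BMTGMP. These were 2 of 8 called higher in LTearly than in BMTGMP, beside 3.27% of all genes, and 0 of 8 called lower, beside 3.03%. The 0 lower calls stand beside 3 receptors at an unadjusted p under 0.05, all higher, and DESeq2 called 3, again all higher. In LTearly against LTlate, Csf3r alone was called, 1 of 8 beside 0.124% of genes higher, with 0 of 8 beside 0.138% lower. There 3 receptors had an unadjusted p under 0.05, Csf3r and Il6st higher and Csf2ra lower, and DESeq2 called Csf3r and Il6st. In LTlate against BMTGMP, edgeR's test called 0 of 8 higher and 0 of 8 lower, beside 1.64% and 0.447% of all genes. There 3 receptors had an unadjusted p under 0.05, all higher in LTlate, and DESeq2 called 1, Csf1r (adjusted p = 0.0369). The median log2 difference of the 8 was 0.59 in LTearly against BMTGMP, 0.43 in LTlate against BMTGMP and 0.08 in LTearly against LTlate, next to 0.07, -0.04 and 0.07 over all genes. With median-ratio scaling, the median over all genes was 0.19 in LTearly against LTlate, and 63.0% of its called genes were higher against 47.4% with TMM. The corresponding shares were 63.5% against 51.9% in LTearly against BMTGMP. With DESeq2, the share was 60.6% against 71.8% in LTlate against wtGMP and 66.3% against 78.5% in LTlate against BMTGMP.

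Within the receptor pairs, levels per transcript length (CPM per kb) showed how the chains shifted against each other. The ratio of Il6ra to Il6st per length averaged 3.197 ± 1.13 in LTearly (1.83 to 4.47), 6.22 ± 0.733 in LTlate (5.78 to 7.07), 6.98 ± 2.40 in BMTGMP (4.26 to 8.81) and 1.44 ± 0.136 in wtGMP (SD, 1.30 to 1.56). Each MLL-AF9 library had more of the binding chain per gp130 transcript than each wtGMP library. Csf2ra to Csf2rb averaged 3.11 ± 1.59 in LTearly, 3.77 ± 0.533 in LTlate, 3.88 ± 0.291 in BMTGMP and 2.68 ± 0.470 in wtGMP, with LTearly overlapping the other groups. Il3ra to Csf2ra was 0.0272 ± 0.0125 in LTearly, 0.0392 ± 0.00980 in LTlate, 0.0416 ± 0.0316 in BMTGMP and 0.0682 ± 0.0274 in wtGMP, so RNA of the GM-CSF alpha chain exceeded that of the interleukin 3 alpha chain in every group. Csf1r to Csf3r was 1.27 ± 0.493 in LTearly, 3.602 ± 0.714 in LTlate, 1.08 ± 0.855 in BMTGMP and 2.11 ± 0.685 in wtGMP (SD, n = 4, 3, 3 and 4). The LTlate libraries had the highest ratios of M-CSF to G-CSF receptor RNA. Csf2rb2 made up 20.2% ± 2.62 of both beta chains in LTearly, 19.6% ± 2.40 in LTlate, 19.3% ± 0.672 in BMTGMP and 15.9% ± 2.20 in wtGMP.

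**Figure D3:**
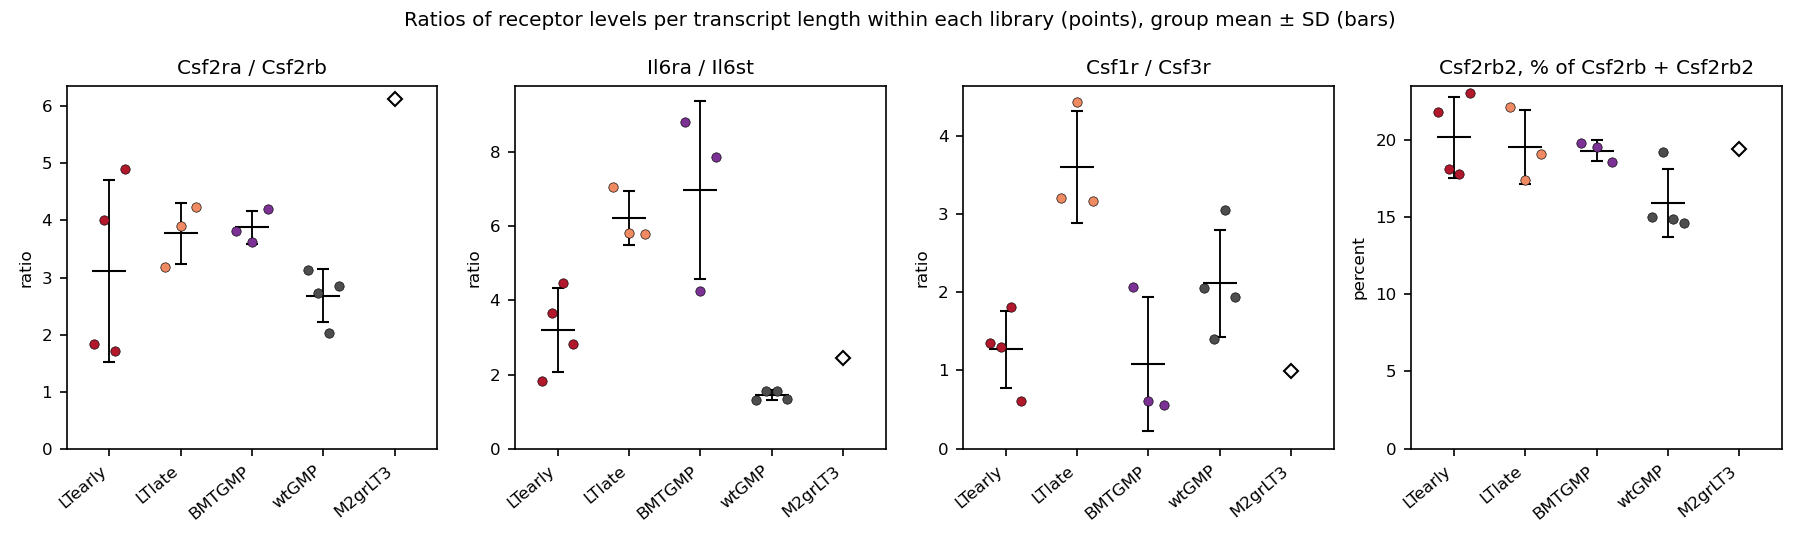
Ratios of receptor levels per transcript length within each library (points; group mean and SD as bars) and, at the right, Csf2rb2 as a percent of both beta chains. The Il6ra to Il6st ratio lies at 1.30 to 1.56 in wtGMP and at 1.83 or more in every MLL-AF9 library.

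Per transcript length, Csf2ra was the highest of the 8 in every group, at 177.5 CPM per kb in LTearly, 249 in LTlate, 188 in BMTGMP and 73.4 in wtGMP. Csf2rb came next in LTearly (72.7), LTlate (67.1) and BMTGMP (48.9), and Csf1r came next in wtGMP (48.1 CPM per kb, against 27.9 for Csf2rb). Il3ra was the lowest in LTearly (4.90) and in wtGMP (5.12 CPM per kb), and Il6st was the lowest in LTlate (5.03) and BMTGMP (3.51 CPM per kb).

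Across the 14 libraries the beta chains varied together, with a Pearson r of 0.966 between the log2 CPM of Csf2rb and Csf2rb2, which share reads. Csf2ra had r = 0.836 with Csf2rb2, 0.779 with Csf2rb and -0.819 with Il6st. These are descriptions over 14 libraries that share the difference between groups. By the same measure, the genes outside the receptor set most like Csf2ra were P2rx1 (0.962), Wdr1 (0.957) and Flna (0.955). For Csf2rb they were Cert1 (0.927), Spi1 (0.915), the gene of PU.1, and Rhog (0.907), and for Csf2rb2 Msrb1 (0.945), Spi1 (0.935) and Rhog (0.931). Il6st was most like Satb1 (0.947), Msantd3 (0.935) and Scarf1 (0.923), and Csf1r most like Ctsc (0.935), Ank (0.927) and Nlrp3 (0.912). For Csf3r they were Srpk2 (0.904), Olfr1202 (0.897) and Tmie (0.871), of which Olfr1202 averaged 3.76 CPM in LTearly, 0 in LTlate, 0.187 in BMTGMP and 0.343 in wtGMP. Il6ra was most like Psap (0.9), Fam89b (0.897) and Arfip1 (0.871), and Il3ra most like Cblb (0.858), Klhl20 (0.857) and Cd163 (0.834).

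Of the ligands, Osm alone was called. Osm, the gene of oncostatin M, a cytokine of the gp130 family, averaged 93.1 ± 28.9 CPM in LTearly, 26.8 ± 14.7 in LTlate, 9.28 ± 3.30 in BMTGMP and 29.5 ± 4.46 in wtGMP (SD). It rose in LTearly by 1.65 ± 0.34 (SE, adjusted p = 0.000658) and fell in BMTGMP, with a log2 fold change of -1.67 ± 0.38 (adjusted p = 0.00523), while LTlate minus wtGMP was -0.14 ± 0.36 (adjusted p = 0.893). Of 10 ligand genes 6 were tested, with 1 called higher in LTearly, 0 in LTlate and 1 called lower in BMTGMP. Over all genes, 10.7% and 7.65% were called higher in LTearly and LTlate, and 2.17% lower in BMTGMP. In LTlate 0 of the 6 were also at an unadjusted p under 0.05 and 0 were called by DESeq2. Csf2, Csf3, Il5 and Il34, the genes of GM-CSF, G-CSF, interleukin 5 and interleukin 34, did not pass the filter on low counts. Il6 averaged 2.30 CPM in LTearly, 0.754 in LTlate, 1.18 in BMTGMP and 0.686 in wtGMP.

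Downstream of the receptors, the kinase gene Lyn was called higher in all 3 MLL-AF9 groups. Of 20 genes of JAK kinases, STAT factors and adaptors, 9 were called higher than in wtGMP and 11 not called in LTearly. In LTlate 6 were called higher and 14 not called, and in BMTGMP 2 were higher and 2 lower. The shares of all genes called higher were 10.7%, 7.65% and 4.35%, and 2.17% were called lower in BMTGMP. The median log2 fold changes of this list were 0.49, 0.26 and 0.12, beside 0.19, 0.01 and 0.06 over all genes. Lyn, a Src-family kinase, averaged 420.2 CPM in LTearly, 437.5 in LTlate, 241.5 in BMTGMP and 112 in wtGMP. It rose in each MLL-AF9 group, by 1.91 ± 0.21 in LTearly (adjusted p = 1.65e-07), 1.97 ± 0.22 in LTlate (adjusted p = 3.6e-07) and 1.11 ± 0.22 in BMTGMP (adjusted p = 0.00114) on the log2 scale. Jak1, a kinase that binds gp130, rose by 0.86 ± 0.17 in LTearly (adjusted p = 0.000348). Stat3, the main STAT of gp130 and the G-CSF receptor, rose by 1.14 ± 0.23 in LTearly (adjusted p = 0.000535). In LTlate, Jak1 rose by 0.71 ± 0.18 (adjusted p = 0.0069) and Stat3 by 0.74 ± 0.24 (adjusted p = 0.0464). In BMTGMP, Stat4 fell with a log2 fold change of -3.47 ± 0.49 (adjusted p = 2.35e-05) and Stat5b, a STAT of the GM-CSF and interleukin 3 receptors, with -1.19 ± 0.28 (adjusted p = 0.00769).

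Inhibitors of receptor signalling numbered 10 tested of 11, with 4 called higher in LTearly, 2 in LTlate and 0 in BMTGMP, and the others not called. For each list in this paragraph, the shares over all genes were 10.7%, 7.65% and 4.35% higher and 9.46%, 3.01% and 2.17% lower. In BMTGMP, 3 inhibitors were at an unadjusted p under 0.05 and DESeq2 called 1. Ptpn6, the gene of the phosphatase SHP-1, rose by 1.02 ± 0.16 in LTearly (adjusted p = 3.54e-05) and 1.07 ± 0.17 in LTlate (adjusted p = 8.28e-05), and Inpp5d, the gene of the lipid phosphatase SHIP1, by 0.55 ± 0.18 and 0.73 ± 0.19 (adjusted p 0.0276 and 0.00931). Of 9 STAT target genes, 4, 3 and 1 were called higher and 1 lower in each MLL-AF9 group. Ccnd3, a D-type cyclin, rose by 1.62 ± 0.22 in LTearly, 1.49 ± 0.23 in LTlate and 1.33 ± 0.23 in BMTGMP, and Ccnd2, another, fell with log2 fold changes of -2.96 ± 0.59, -3.62 ± 0.68 and -5.77 ± 0.78. Of 11 transcription factors of myeloid receptor genes, 3, 2 and 3 were called higher, and 1 was called lower in LTearly and 1 in BMTGMP. Cebpb, a C/EBP factor of myeloid cells, rose by 2.15 ± 0.30 in LTearly, 1.31 ± 0.31 in LTlate and 1.22 ± 0.31 in BMTGMP, and Cebpe, a factor of late granulocyte genes, by 2.14 ± 0.44, 1.77 ± 0.45 and 1.98 ± 0.45. Spi1 rose by 0.88 ± 0.22 in LTearly (adjusted p = 0.00406), and Gfi1, a transcriptional repressor needed for granulocytes, by 2.04 ± 0.33 in BMTGMP (adjusted p = 0.000405). Those that fell were Cebpa, a factor of granulocyte-macrophage progenitors, with a log2 fold change of -1.28 ± 0.29 in LTearly (adjusted p = 0.00239), and Irf8, a factor of the monocyte lineage, with -2.33 ± 0.51 in BMTGMP (adjusted p = 0.0133).

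Among 21 tested of 23 other cytokine receptors, 6 were called higher and 2 lower in LTearly, 2 and 1 in LTlate, and 0 and 0 in BMTGMP. Over all genes, 10.7% were called higher and 9.46% lower in LTearly, 7.65% and 3.01% in LTlate, and 4.35% and 2.17% in BMTGMP. In BMTGMP, 4 of these receptors were at an unadjusted p under 0.05 and DESeq2 called 3. Kit, the receptor of stem cell factor and a gene of the sorting gate, fell in LTearly with a log2 fold change of -1.92 ± 0.45 (adjusted p = 0.00768) and in LTlate with -3.07 ± 0.53 (adjusted p = 0.00159). Il11ra1, the interleukin 11 binding chain that pairs with gp130, fell in LTearly with -1.83 ± 0.36 (adjusted p = 0.000462). Il4ra, the interleukin 4 receptor chain, rose in LTearly by 1.98 ± 0.47 (adjusted p = 0.00893), and Il10rb and Il17ra, chains of the interleukin 10 and 17 receptors, rose in LTlate by 1.49 ± 0.36 (adjusted p = 0.00638) and 1.503 ± 0.43 (adjusted p = 0.0412). The median log2 fold changes in LTearly, LTlate and BMTGMP were 0.91, 0.40 and 0.07 for these receptors, 1.49, -0.07 and 0.28 for the tested ligands, 0.73, 0.68 and 0.22 for the inhibitors, 1.41, 1.02 and 0.49 for the STAT targets, and 0.04, 0.22 and -0.35 for the transcription factors. Over all genes the medians were 0.19, 0.01 and 0.06, so the transcription factor list lay below them in LTearly and BMTGMP.

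**Figure D4:**
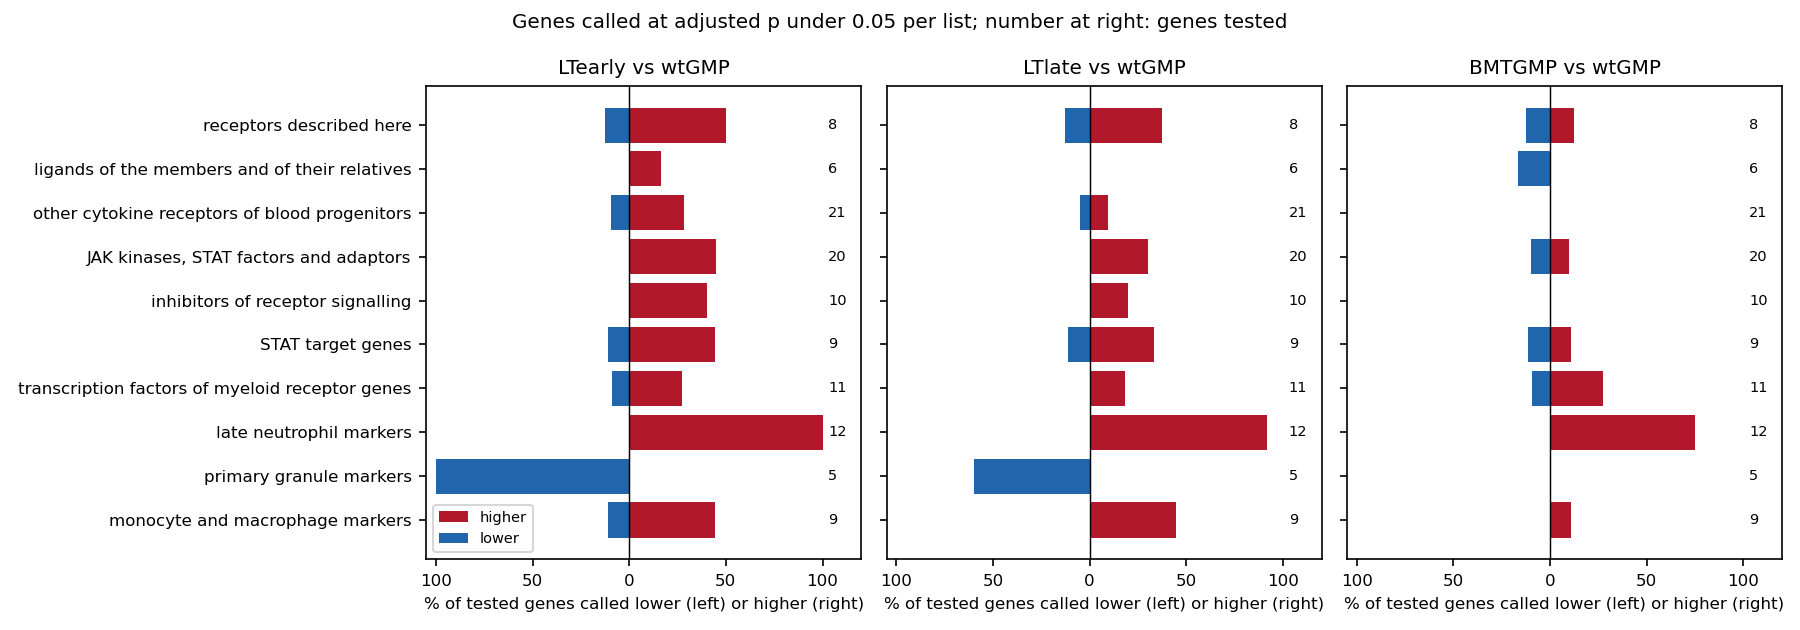
Percent of the tested genes of each list called lower (left, blue) or higher (right, red) than in wtGMP at adjusted p under 0.05 in LTearly, LTlate and BMTGMP, with the number of genes tested at the right. For the receptors described here, 4, 3 and 1 of 8 are higher and 1 of 8 is lower, and late neutrophil markers are called higher in 12, 11 and 9 of 12.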

How the data were processed

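RNA was sequenced from sorted bone marrow, with libraries made from 150 ng of total RNA, per the labels. The deposited table holds expected counts on mouse RefSeq transcripts of build mm9, and per the file headers up to 100 hits were kept per read. Of its values, 13.75% are not whole (tolerance 1e-06). The submitters' processing notes list Bowtie 0.9.9.1, with no role or settings. Column totals ran from 3487772 to 21462900. Symbols were found for 26092 of 28847 transcripts, from a RefSeq table (25977) and GENCODE (115), and unmatched transcripts took 3.5% to 4.2% of counts. Of the value columns, 1 matched no sample and was not used. Among 105 pairs of libraries 0 were identical.

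The expected counts, as deposited by the authors, were rounded to whole numbers after the transcript with the highest mean per gene was taken. They were tested in edgeR 4.0.16 (R 4.3.3; TMM, filterByExpr, robust quasi-likelihood fit of 4 group means) over 14 libraries, with 2-sided p-values adjusted over 14542 genes, and the fit was tested on simulated data. Log2 CPM for correlations used a prior count of 2. Alternatives were DESeq2 1.42.0, other size factors and filters, a replicate block, other library sets, summed transcripts, summed beta chains and thinned depth. The named genes were the receptors, up to 4 genes per list with the smallest adjusted p, and for each receptor the 3 genes of highest correlation. Of the genes this rule named, 1 is not reported here. The receptors and lists were chosen with earlier results of these data known.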

Additional observations from a re-analysis of the deposited data

Results flagged for a closer look

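The library with conflicting labels, M2grLT3, was outside every comparison. Its receptor levels are given beside the range of the wtGMP libraries, as a description of a single library. It had 141.1 CPM of Csf3r, against 56.9 to 109 in wtGMP, and 608.2 CPM of Csf2ra, against 124 to 150.2 in wtGMP. It had 255.8 CPM of Csf2rb, against 112 to 162 in wtGMP, and 61.34 CPM of Csf2rb2, against 19.1 to 33.5 in wtGMP. Its Csf3r level lay inside the LTearly range (134 to 191 CPM) and above the LTlate range (43.2 to 68.1 CPM), and its Csf2ra level lay above every library of either group. Its Il6st level of 118 CPM lay between LTearly, at most 92.0 CPM, and wtGMP, at least 140.2 CPM. Its Csf1r level of 155.6 CPM lay below the wtGMP range (170.1 to 195.3 CPM). Il3ra at 11.49 CPM and Il6ra at 110.8 CPM lay inside theirs (4.46 to 13.94 and 74.46 to 116.3 CPM). The share of all genes for which this library lay outside the wtGMP range was not counted. These levels are therefore not read as particular to the receptors. No library in the groups of 4 stood far enough from its group in any receptor gene to be listed here.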

How the results depend on the processing

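Over the alternative settings for the 8 receptors in 6 comparisons, 797 values kept their direction and side of the threshold, 20 passed it newly, 11 lost it and 30 changed sign. The 30 belong to 10 differences not called over all libraries, and 0 of them were called. Csf2ra and Il6st were called against wtGMP in every alternative run, with log2 fold changes of 1.22 to 1.87 and -0.89 to -2.51. The number of receptors called in BMTGMP against wtGMP was 2, and 4 with the replicate block and with only both compared groups fitted. In LTlate against BMTGMP it was 0, and 1 with DESeq2 and with the replicate block; leaving out 1 library gave 0 to 1, the 1 without BMTGMP library 1. In LTearly against LTlate it was 1, against 2 with DESeq2, 2 with M2grLT3 counted as LTearly and 0 with it counted as LTlate; leaving out 1 library gave 0 to 1, the 0 without LTlate library 3. The cause was not tested.

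On the log2 scale, Il3ra in LTearly minus wtGMP (-0.06) was 0.02 with DESeq2 and with median-ratio size factors, 0.058 with M2grLT3 counted as LTearly, and -0.42 to 0.317 with 1 library left out. With M2grLT3 counted as LTearly, Csf2ra in LTearly minus BMTGMP (-0.09) was 0.133, and with median-ratio size factors 0.002. Csf3r in LTlate minus BMTGMP (-0.21) was 0.243 with M2grLT3 counted as LTlate. In LTearly minus LTlate, Il6ra (-0.06) was 0.054 with DESeq2, 0.053 with median-ratio size factors and 0.013 with thinned depth. With the replicate block, Csf1r (0.07), Csf2rb (0.11) and Csf2rb2 (0.10) were -0.244, -0.049 and -0.005, and Csf1r was -0.041 with M2grLT3 counted as LTearly. Leaving out 1 library gave -0.252 to 0.163 for Il6ra, -0.133 to 0.334 for Csf1r, -0.201 to 0.38 for Csf2rb and -0.146 to 0.409 for Csf2rb2. It gave -0.042 to 0.387 for Il6ra in LTearly minus wtGMP (0.16), -0.56 to 0.042 for Il6ra in BMTGMP minus wtGMP (-0.16), and -0.12 to 0.898 for Il3ra in LTlate minus BMTGMP (0.37).

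Replicate numbers did not pair the libraries: of 18 pairs with the same number in different groups 1 had a correlation over 0.1 (range -0.162 to 0.115), and the replicate block changed the receptor counts only as given and to 3 from 2 in LTearly against BMTGMP. The LTearly and LTlate libraries that share a title ending, grD2 and grLT3, had correlations of -0.016 and 0.081, and no fit used the endings.

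Genes called in all moved by over 1.5 times in LTlate against wtGMP (1549; 2486 with only those groups, 921 without LTlate library 2), BMTGMP against wtGMP (947; 1421 with DESeq2), LTearly against BMTGMP (917; 1499 with DESeq2, 407 with only those groups, 583 without BMTGMP library 1) and LTlate against BMTGMP (303; 570 with DESeq2, 155 without LTlate library 2, 177 without BMTGMP library 4). In LTearly against LTlate 38 genes were called, and 256 with DESeq2, 141 with no filter, 86 and 0 with M2grLT3 counted as LTearly and LTlate, 21 with transcripts summed, 22 and 198 without LTearly libraries 2 and 4, and 25, 10 and 4 without LTlate libraries 2, 3 and 4. Depth limited Il3ra, with as few as 14 counts in a library.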
